A study of Rattus norvegicus with 12 samples.

Results

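Proteinase K-treated mitochondria captured on magnetic beads were compared with crude mitochondria pelleted by differential centrifugation, across all genes of the deposited count table. The comparison takes the 3 libraries titled as mitochondria with RNase and proteinase K (IP_RNase_ProK below) and the 3 titled as crude mitochondria with RNase (crude_RNase), 6 of the 12 libraries of the series. The other libraries are captured mitochondria without proteinase K (IP_RNase, 3 libraries, used here to test the protease step alone) and mitoplasts (3 libraries, used only to estimate the spread). All material came from the hindlimb muscle of 1 wild-type male Wistar Kyoto rat aged 14 weeks, and the series design names the gastrocnemius. Every group, the crude one included, was treated with RNase A, which degrades RNA that it can reach, so no group without RNase enters the comparison. Libraries were ribosomal RNA-depleted total RNA libraries, made from 6.3 ng of RNA for crude_RNase and from 40 ng for the captured preparations. The groups differ in isolation method, protease treatment and RNA input at once, and these cannot be told apart in the 3 against 3 comparison. The libraries of a group are aliquots of 1 pooled homogenate of 1 animal, so the p-values below speak only of how these preparations vary, which may be technical.

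Mitochondria carry a small circular genome that encodes core subunits of the respiratory chain and ATP synthase together with the rRNAs and tRNAs that translate them. All other mitochondrial proteins are encoded in the nucleus, translated on cytosolic ribosomes, some of them at the organelle surface, and imported. Skeletal muscle is packed with mitochondria that lie between contractile filaments and beside the sarcoplasmic reticulum, and pellets made by centrifugation are known to carry fragments of these neighbours. Proteinase K digests proteins exposed on the outside of the organelle, and RNase A then reaches RNA that those proteins had shielded.

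The crude_RNase libraries held 6583452, 7123045 and 6764447 gene counts and the IP_RNase_ProK libraries 4563254, 3705192 and 3856848. Between 95.8% and 96.5% of the 30560 genes in the table had at least 1 count in each of these 6 libraries, so nearly all genes had reads in both preparations. On the first principal component, with 34.2% of the variance of log2 CPM (defined below), the 3 crude_RNase libraries lay apart from all others. Replicates of IP_RNase_ProK were closer to each other, with a median coefficient of variation per gene of 8.89%, than those of crude_RNase, with 13.1%. The first crude_RNase library had a lower mitochondrial share than the other two, and the second held far more reads of the giant muscle gene Ttn than the others.

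Transcripts of the mitochondrial genome took a far smaller share of the captured and protease-treated libraries than of the crude ones. The 37 mitochondrial genes held 2.06%, 2.82% and 3.36% of all gene counts in the IP_RNase_ProK libraries and 41.2%, 53.3% and 54.0% in the crude_RNase libraries. The highest captured library lay far below the lowest crude library, and the means were 2.75% ± 0.653 and 49.5% ± 7.18 (SD, n = 3 each). The difference of -46.8 percentage points had a two-sided exact permutation p of 0.1, the smallest that 3 against 3 libraries allow, and an adjusted exact permutation p of 0.1 over the 5 shares tested. Mitochondrial mRNAs alone made up 1.76% ± 0.294 against 25.7% ± 2.97 (SD, n = 3 each), and mitochondrial rRNA and tRNA genes 0.991% ± 0.375 against 23.8% ± 5.25 (SD, n = 3 each). Nuclear protein-coding genes held 78.3% ± 0.604 against 39.4% ± 6.07 (SD, n = 3 each), with no overlap between the groups. For each count of a mitochondrial mRNA there were 53.1, 45.8 and 37.6 counts of nuclear protein-coding genes in the 3 IP_RNase_ProK libraries and 2.02, 1.25 and 1.41 in the 3 crude_RNase libraries. In shares of bulk libraries such as these, fewer organelles, less RNA per organelle and more reads of nuclear genes cannot be told apart.

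Other classes set apart the preparations as well. Nuclear-encoded rRNA, which the depletion step had not fully removed, was 0.0819% ± 0.00381 in IP_RNase_ProK and 2.22% ± 0.0745 in crude_RNase (SD, n = 3 each). The RNA of the signal recognition particle, the cytosolic complex that docks ribosomes on the endoplasmic reticulum, was 0.0103% ± 0.000574 against 0.152% ± 0.0256 (SD, n = 3 each). Both had an exact permutation p of 0.1, the smallest possible. Olfactory receptor genes, which are typical of the nose and not of muscle, went the other way at 1.51% ± 0.0144 against 0.652% ± 0.0523 (SD, n = 3 each), again with an exact permutation p of 0.1. Shares add up to a whole, so a smaller mitochondrial share raises the shares of other classes. The shares of nuclear protein-coding genes (78.3% against 39.4%) and of genes without a name (11.6% against 5.25%) were higher too. Relative to the bulk of genes, by the scaling described below, the median log2 fold change of olfactory receptor genes was 0.11. The median olfactory receptor gene had 50, 41 and 42 counts in the captured libraries and 35, 33 and 31 in the crude ones, so reads of these genes were present in every library. Where those reads come from was not tested.

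**Figure D1:**
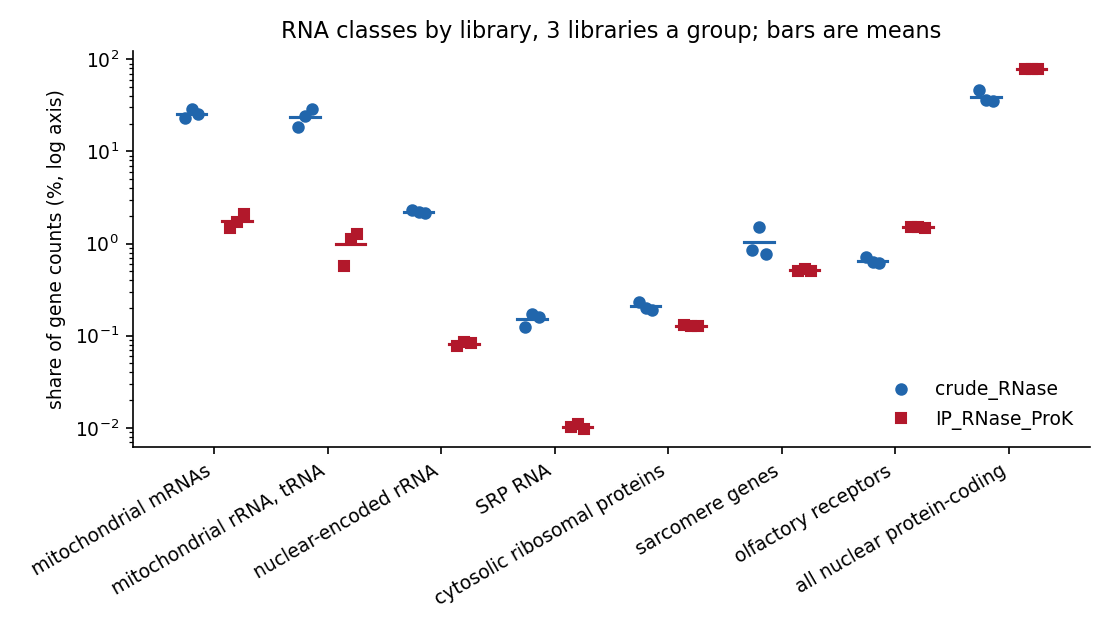
Share of all gene counts (%, log axis) held by 8 RNA classes in each of the 3 crude_RNase (circles) and 3 IP_RNase_ProK (squares) libraries, with horizontal bars at the group means. Mitochondrial, nuclear-encoded rRNA, signal recognition particle, ribosomal protein and sarcomere classes lie lower in IP_RNase_ProK, and olfactory receptor and all nuclear protein-coding genes lie higher.

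Gene by gene, the comparison was tested with the quasi-likelihood test of edgeR on counts scaled by TMM, a method that sets the bulk of genes to no change. Levels are given as CPM, the counts per 1000000 counts of the scaled library, and a gene was called at a Benjamini-Hochberg adjusted p under 0.05. Of 26483 genes tested, 1718 (6.49%) were called, of which 1333 (5.03%) were lower and 385 (1.45%) higher in IP_RNase_ProK. The lower side also held the larger changes: on the log2 scale 341 genes fell by over 1, 112 by over 2 and 30 by over 4, whereas 46 rose by over 1 and 5 by over 2. Directions depend on this scaling. Scaled by library size alone, the median of all genes moved to 1.08 (log2) and 25222 genes were called higher and 186 lower, so the changes below are changes relative to the bulk of genes. With scaling on the olfactory receptor genes the median moved to -0.12, with 79 genes called higher and 1991 lower. With DESeq2 166 genes were called higher and 969 lower. Leaving out the first IP_RNase_ProK library, the second IP_RNase_ProK library or the first crude_RNase library moved the number called higher to 181, 205 and 662.

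**Figure D2:**
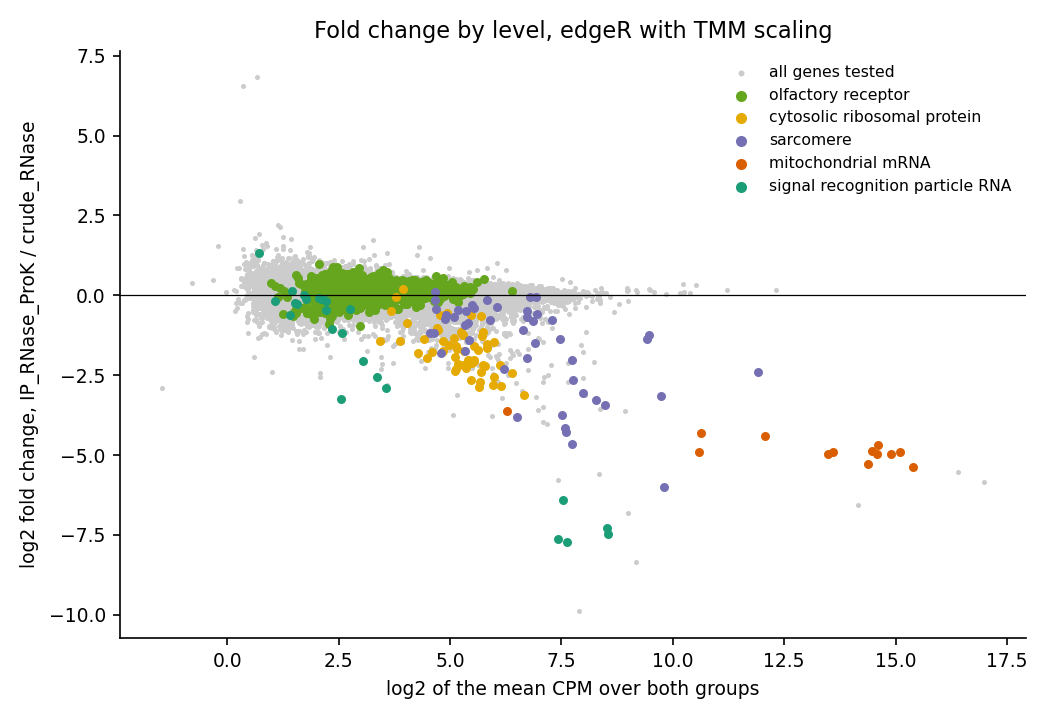
Log2 fold change of IP_RNase_ProK over crude_RNase (TMM scaling) against the log2 of the mean CPM over both groups, 1 point per gene tested, with 5 gene classes coloured. The mitochondrial mRNAs lie between -5.37 and -3.62, and the 2 points above 6 are genes with 0 counts in all 3 crude_RNase libraries, whose fitted values are no measure of size.

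All 13 mitochondrial mRNAs fell, by 3.62 to 5.37 on the log2 scale, with a median of -4.89. They encode subunits of complexes I, III and IV and of ATP synthase. Mt-co1, the catalytic subunit of cytochrome c oxidase, had 1609.9, 1939.8 and 2578 CPM in the IP_RNase_ProK libraries and 62974, 98412 and 91622 CPM in the crude_RNase libraries. The groups did not come near each other, and the fold change of -5.37 ± 0.28 (SE) on the log2 scale had an edgeR adjusted p of 4.89e-23. Mt-co3, another core subunit of that enzyme, had 882, 1009 and 1317 CPM against 32173, 49471 and 43451 CPM, a log2 fold change of -5.29 ± 0.23 (SE). Mt-cyb, the cytochrome of complex III, had 1634, 1813 and 2263 CPM against 46135, 71647 and 60464 CPM, a log2 fold change of -4.96 ± 0.23 (SE). In both genes the third captured library was the highest of its group and the second crude library the highest of the crude group. Mt-nd1 and Mt-nd5, subunits of complex I, changed by -4.87 and -4.90 on the log2 scale. Mt-nd6, the subunit encoded on the opposite strand of the circle from the rest, fell less far, with 344, 411 and 407 CPM against 5509.9, 9891 and 9091 CPM and a log2 fold change of -4.40 ± 0.20 (SE). Mt-atp8, a small ATP synthase subunit, had the smallest change of the 13, at -3.62 ± 0.15 (SE), with 10.7, 13.5 and 11.1 CPM against 125, 169 and 139 CPM. Differences in size among the 13 were not tested. Of the 24 mitochondrial rRNA and tRNA genes, 4 passed the filter on low counts and all 4 were lower. The 2 most counted of them, taken as the rRNA genes and named AY172581.24 and AY172581.9 in the table, changed by -5.86 ± 0.43 (SE) and -5.53 ± 0.44 (SE) on the log2 scale, with adjusted p of 2.07e-16 and 2.75e-15. By library size the median of the 13 mRNAs was -3.78, so this group was lower under both scalings, and with scaling on these mRNAs themselves it was 0.09.

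**Figure D3:**
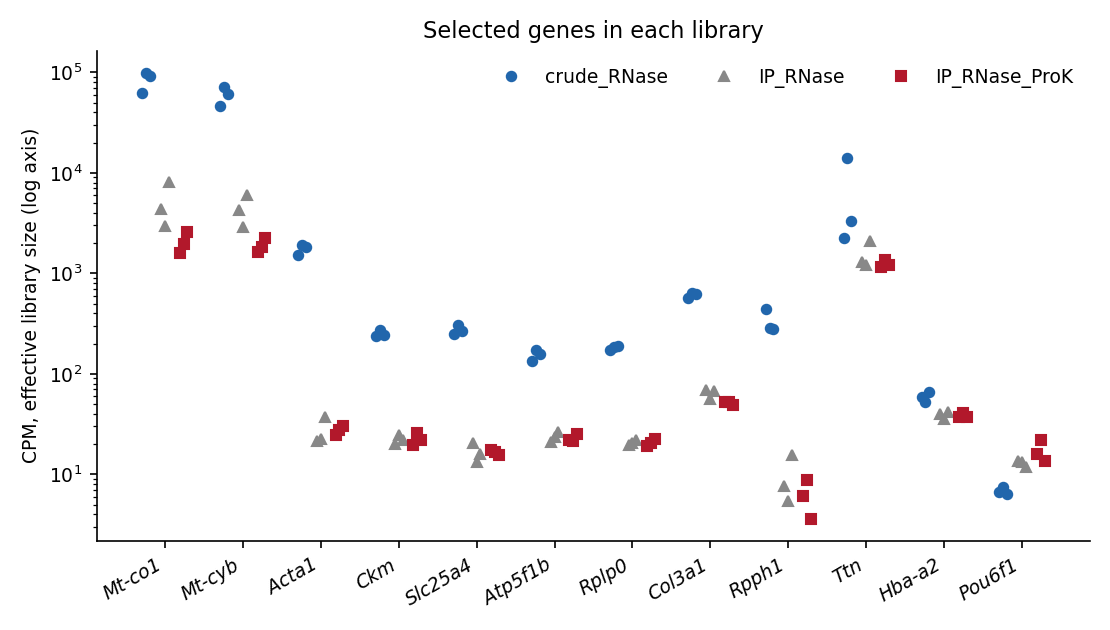
CPM of effective library size (log axis) of 12 genes in each crude_RNase (circles), IP_RNase (triangles) and IP_RNase_ProK (squares) library, 3 per group. Mt-co1 and Mt-cyb step down from crude_RNase to IP_RNase and again to IP_RNase_ProK, Acta1, Ckm and Rplp0 lie at like levels in both captured groups, and Pou6f1 is lowest in crude_RNase.

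Nuclear genes for mitochondrial proteins had members called lower in each of the lists below and none called higher. Of all genes tested 5.03% were called lower and 1.45% higher. The list medians were closer to 0 than that of the mitochondrial mRNAs. Differences between the lists were not tested. Of 35 genes tested for complexes II to V, 29 fell and none rose, with a median log2 fold change of -1.08. Of 31 for complex I, 16 fell and 15 did not pass the test, with a median of -0.64. Over all genes tested the median was 0.00. Atp5f1b, the catalytic beta subunit of ATP synthase, had 21.9, 21.5 and 25.3 CPM in IP_RNase_ProK and 135, 172 and 157 CPM in crude_RNase. It was 6.74-fold lower with no overlap, a log2 fold change of -2.75 ± 0.10 (SE) and an edgeR adjusted p of 2.78e-30. Atp5f1a, its alpha partner, changed by -1.95, and the cytochrome c oxidase subunits Cox6c and Cox4i1 by -2.28 and -1.71. In complex I, Ndufa6 and Ndufv2 changed by -1.36 and -1.19. By library size the median of complexes II to V was 0.01 and that of complex I 0.45, so for these lists the direction is relative to other genes only.

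Enzymes that burn fatty acids or belong to the tricarboxylic acid cycle gave 26 of 37 lower and none higher, with a median of -0.46. Among all genes 5.03% were lower and 1.45% higher. Pdk4, the kinase that turns off pyruvate dehydrogenase, had 30.5, 30.1 and 31.9 CPM against 74.7, 102 and 98.9 CPM and a log2 fold change of -1.57 ± 0.10 (SE). Ckmt2, the creatine kinase of muscle mitochondria, changed by -1.49, and Pdha1, a subunit of pyruvate dehydrogenase, by -1.14. Among 34 genes for import, carriers and the outer membrane 13 fell, with a median of -0.36. Slc25a4, the ADP/ATP carrier of muscle and heart, stood far from the rest of that list. It had 17.5, 16.8 and 15.5 CPM in the captured libraries and 251, 307 and 266 CPM in the crude ones, 16.5-fold lower, with a log2 fold change of -4.04 ± 0.10 (SE) and an edgeR adjusted p of 3.06e-37. Vdac3, a pore of the outer membrane, and Chchd3, a component of the cristae junction complex, changed by -1.04 and -1.06.

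Most genes of the machinery that keeps and reads the mitochondrial genome were not called. Of 30 genes for mitochondrial DNA maintenance and expression, 1 was called (3.33%, beside 5.03% of all genes lower), Lrpprc, which stabilises mitochondrial mRNAs. Its 64.5, 63.5 and 60.5 CPM against 74.0, 85.4 and 76.6 CPM gave a log2 fold change of -0.32 ± 0.08 (SE) with an edgeR adjusted p of 0.00977, and the call ended without the third IP_RNase_ProK or the second crude_RNase library, at -0.29 and -0.26 on the log2 scale. Of 67 mitochondrial ribosomal protein genes 8 (11.9%) were lower, beside 5.03% of all genes. That number dropped to between 3 and 5 without any 1 IP_RNase_ProK library or without the second crude_RNase library. The number of all genes called lower then dropped too, from 1333 to between 1002 and 1179. Mrpl3 changed by -0.58 and Mrps21 by -0.68 on the log2 scale. The Mrps21 call, with an adjusted p of 0.0182, was lost without the first or the third IP_RNase_ProK or the first or second crude_RNase library (log2 fold changes from -0.64 to -0.60). By library size the medians of these 2 lists were 0.96 and 0.91.

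**Figure D4:**
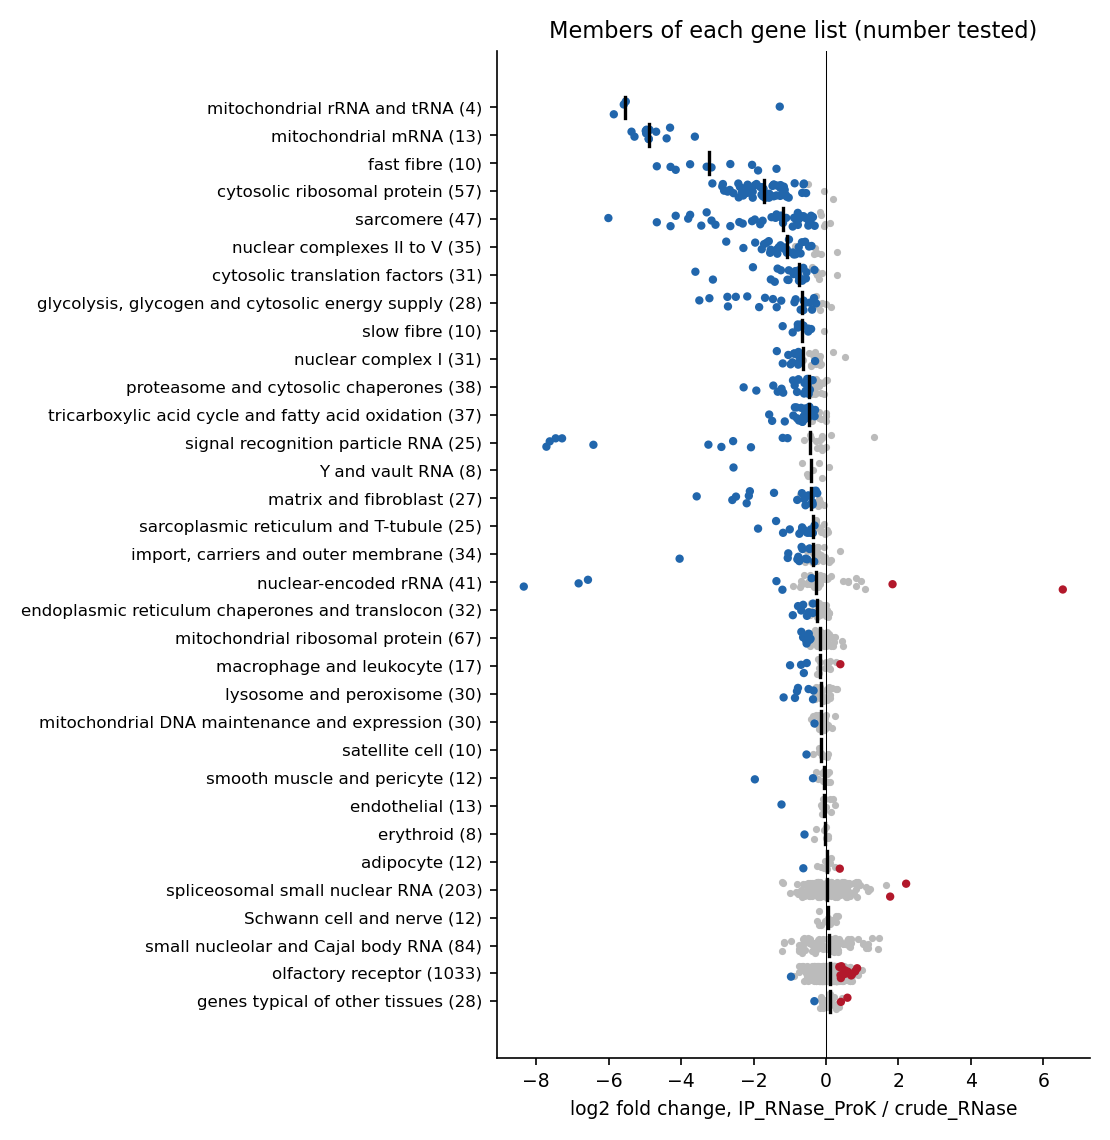
Log2 fold change of IP_RNase_ProK over crude_RNase for the tested members of each gene list of more than 1 member (microRNA genes not shown), ordered by their medians (black bars), with members called lower in blue, called higher in red and not called in grey. Lists of mitochondrial transcripts, fast fibre genes, cytosolic ribosomal proteins and sarcomere genes lie furthest to the left, and lists of markers of other cell types, apart from matrix and fibroblast genes at -0.42, have medians between -0.15 and 0.07.

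Of 57 cytosolic ribosomal protein genes tested 54 fell and none rose, beside 5.03% and 1.45% of all genes. Their median log2 fold change was -1.72. Rplp0, the stalk protein of the large subunit, had 19.1, 20.4 and 22.6 CPM against 171, 184 and 189 CPM and was 8.79-fold lower, a log2 fold change of -3.14 ± 0.09 (SE) with an edgeR adjusted p of 2.05e-34. The large-subunit proteins Rpl5, Rpl19 and Rpl3 changed by -2.85, -2.81 and -2.42 on the log2 scale. The 3 members that did not pass were Rpl39l, Rpl10l and Rps27l, all "like" paralogues of a ribosomal protein, at 0.20, -0.05 and -0.51 on the log2 scale. Paralogues and processed pseudogenes can share reads with their parent gene, and how the authors' counting treated such reads is not stated in the labels or the table. By library size 37 of the 57 were lower and 7 higher, with a median of -0.63. Translation factors gave 21 of 31 lower, none higher and a median of -0.74. Tpt1, a growth-related protein known for its translational control, was 12.2-fold lower with 18.5, 18.6 and 19.8 CPM against 199, 262 and 232 CPM. Eef2, the elongation factor of translocation, had 57.6, 53.5 and 50.5 CPM against 449, 490.0 and 471 CPM and a log2 fold change of -3.12 ± 0.08 (SE), and Pabpc1, the poly(A)-binding protein, changed by -2.02. By library size the median of the translation factors was 0.34.

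Ribosomal protein genes and several translation factors are known for a run of pyrimidines at the transcription start, so the 30 bases around the annotated start (15 before and 15 after, from RefSeq, GRCr8) are shown for 5 of them, to set genes of unlike fold change side by side. Capitals mark CTTTC, the short pyrimidine word searched on the strand of the gene.
Rpl19, chr10:83519049-83519078, plus strand: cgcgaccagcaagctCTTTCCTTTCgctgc
Rpl5, chr14:1995211-1995240, minus strand: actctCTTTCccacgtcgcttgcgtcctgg
Rplp0, chr12:46718376-46718405, minus strand: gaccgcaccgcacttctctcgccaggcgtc
Rpl3, chr7:113507976-113508005, minus strand: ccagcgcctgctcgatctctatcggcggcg
Rpl3l, chr10:14258431-14258460, plus strand: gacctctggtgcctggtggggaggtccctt
The word was present in 18 of 46 ribosomal protein windows (39.1%) and in 3.62% of all 27457 RefSeq windows of that length. On the opposite strand it was found in none of the 46 and in 3.77% of all windows. Ribosomal protein genes with the word had a median log2 fold change of -1.70 and 18 of 18 were lower, and those without it had a median of -1.74 and 27 of 28 were lower. The medians with and without the word were close to each other. Absence of these letters in a window says nothing on how a gene is regulated.

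Contractile genes fell widely, and Acta1 was among the lowest of all named genes. Of 47 sarcomere genes 42 fell and none rose, beside 5.03% and 1.45% of all genes, with a median of -1.19. Acta1, the skeletal muscle actin of the thin filament, had 137, 124 and 141 counts in the IP_RNase_ProK libraries and 6842, 7102 and 6531 counts in the crude_RNase libraries. In CPM these were 24.4, 27.4 and 30.0 against 1530.0, 1895 and 1825, 64.3-fold lower with tight replicates in both groups, a log2 fold change of -6.01 ± 0.12 (SE) and an edgeR adjusted p of 1.61e-41. Mylpf and Myl1, light chains of fast myosin, changed by -4.67 and -4.29, and Tnnc2 and Tnni2, fast troponin subunits, by -4.15 and -3.75. Des, the intermediate filament protein that ties sarcomeres together, changed by -1.96. For the giant filament proteins Ttn and Neb the size of the fall rested in part on 1 library. Ttn, the titin spring, had 1157, 1352 and 1207 CPM in the captured libraries and 2222, 13982 and 3305 CPM in the crude ones, and its log2 fold change of -2.39 became -1.16 without the second crude library, still called. Neb, the thin filament ruler, changed by -1.37, and by -0.79 without the same library, still called. The 5 members that did not pass were Actc1, Mybph, Myom3, Myoz3 and Pdlim7, at -0.14, 0.11, -0.06, -0.04 and -0.16 on the log2 scale. By library size 20 of the 47 were lower and 20 higher, with a median of -0.10.

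Genes of fast and of slow fibres both fell, and the difference between the lists was not tested. All 10 fast fibre genes tested fell, with a median of -3.23, and 9 of 10 slow fibre genes, with a median of -0.65. The share over all genes tested was 5.03% lower. Every member of both lists is also in the sarcomere list above or the sarcoplasmic reticulum and T-tubule list below, so these counts are not separate results. Their summed level ran from 580 to 602 CPM in IP_RNase_ProK and from 4096 to 5359 CPM in crude_RNase for the fast list, and from 423 to 431 CPM against 623 to 723 CPM for the slow list. Among slow genes Myh7, the slow myosin heavy chain, had 112, 121 and 111 CPM against 167, 235 and 187 CPM and a log2 fold change of -0.78 ± 0.09 (SE). Myl3, a slow light chain, and Myoz2, a Z-disc protein of slow fibres, changed by -0.92 and -1.20. By library size the fast list kept a median of -2.13 whereas the slow list stood at 0.43.

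Several muscle proteins have a second gene for a form found in most cells, which allows a comparison within 1 function. Of 14 pairs fixed, 11 had both members in the test. The muscle form was called lower in 10 and the widespread form in 6, and no widespread form was called higher. The shares over all genes tested were 5.03% lower and 1.45% higher. The medians were -2.72 for muscle forms and -0.33 for widespread forms, and the muscle form had the lower fold change in 9 pairs. Ckm, the creatine kinase of muscle cytosol, had 19.6, 25.7 and 21.7 CPM against 239, 271 and 242 CPM and a log2 fold change of -3.50 ± 0.09 (SE), whereas Ckb, its widespread form, had 27.5, 27.4 and 22.8 CPM against 54.3, 43.5 and 40.2 CPM and -0.84 ± 0.12 (SE). Acta1 at 64.3-fold lower stood beside Actb, the widespread actin, at 7.99-fold lower, and Slc25a4 at -4.04 beside Slc25a5 at -0.76. The Slc25a5 call was lost without the first or the second IP_RNase_ProK library, at -0.59 and -0.64. In glycolysis and glycogen use, Eno3 changed by -2.72 and Eno1 by -0.33, Pgam2 by -3.22, Pygm by -2.71 and Pfkm by -1.36. The widespread forms Pgam1, Pygb and Pfkl did not pass, at -0.33, -0.12 and 0.00, and the Eno1 call ended without the first or second IP_RNase_ProK or the first crude_RNase library (-0.32, -0.29 and -0.24). Tpm2 and Tpm4, tropomyosins, changed by -3.05 and -1.02, and Eef1a2 by -0.74 while Eef1a1, at 0.32, did not pass. The exceptions were Rpl3l, the muscle form of a ribosomal protein, at -0.62 beside Rpl3 at -2.42, and Cox6a2 and Cox6a1, at -0.13 and -0.31, of which neither passed. Differences within pairs, and how far the size of a fall depends on the level in the crude libraries, were not tested. By library size the values of Ckb, Slc25a5, Eno1, Tpm4, Eef1a2 and Rpl3l were above 0.

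**Figure D5:**
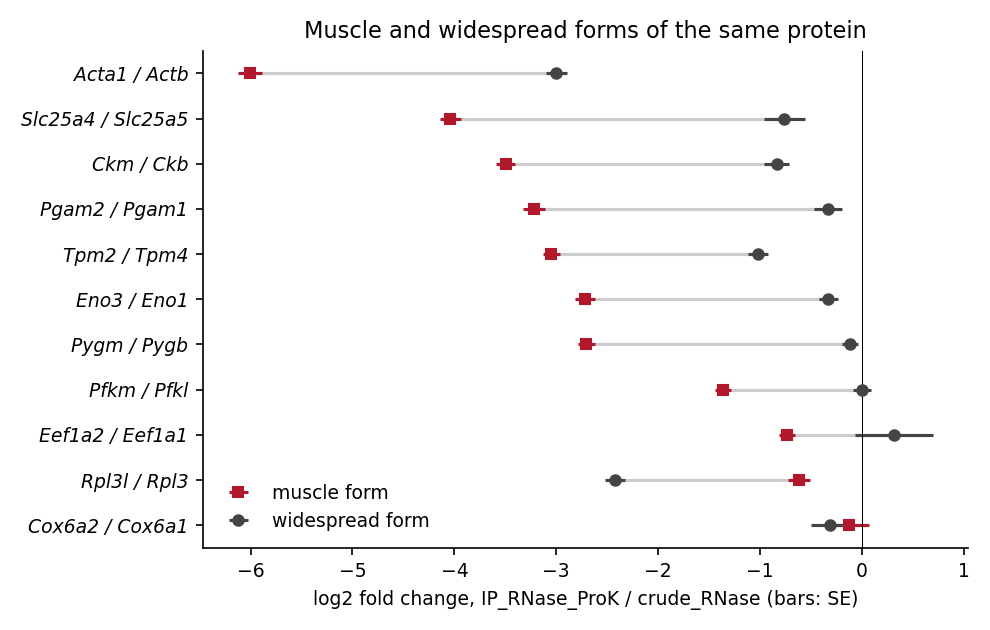
Log2 fold change of IP_RNase_ProK over crude_RNase for the muscle form (squares) and the widespread form (circles) of 11 proteins, with horizontal bars of 1 SE and a grey line joining each pair. Muscle forms lie further to the left in 9 pairs, the exceptions being Rpl3l with Rpl3 and Cox6a2 with Cox6a1.

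Glycolysis, glycogen and cytosolic energy supply as a whole gave 21 of 28 lower and none higher, with a median of -0.66 (0.43 by library size). The calcium store of muscle and its trigger (sarcoplasmic reticulum and T-tubule) had 14 of 25 genes lower, with a median of -0.36 (0.72 by library size). Casq1, the calcium buffer of the store, had 38.1, 37.4 and 33.7 CPM against 127, 143 and 133 CPM and a log2 fold change of -1.87 ± 0.09 (SE), and Tmem38a, a potassium channel of that membrane, and Trdn, triadin, changed by -1.38 and -1.18. Endoplasmic reticulum chaperones and the translocon gave 8 of 32 lower and a median of -0.24 (0.84 by library size), with Canx at -0.92 and Hspa5 at -0.77. Proteasome and cytosolic chaperone genes gave 21 of 38 lower and a median of -0.46 (0.62 by library size). In that list Hsp90ab1, a cytosolic chaperone, changed by -2.27, Ubb, a ubiquitin gene, by -1.45 and Hspa8 by -1.33. Lysosome and peroxisome genes gave 7 of 30 lower and a median of -0.13 (0.95 by library size), led by Psap, the saposin precursor, at -1.17 and the protease Ctsb at -0.86. None of the members of these 5 lists was called higher, and of all genes tested 5.03% were lower and 1.45% higher.

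Among noncoding RNAs, calls differed by kind and also from copy to copy within a kind. Of 41 nuclear-encoded rRNA genes tested, 6 (14.6%) fell and 2 (4.88%) rose, beside 5.03% and 1.45% of all genes. Leaving out 1 library gave 4 to 6 lower, and scaling by library size gave 3 lower and 27 higher. An 18S copy (ENSRNOG00000068307) had 342, 407 and 398 CPM against 31765, 38873 and 38411 CPM, a log2 fold change of -6.57 ± 0.21 (SE), and a 28S copy (ENSRNOG00000064743) changed by -6.83 ± 0.22 (SE). The 2 that rose were 5S copies with few counts, of which 1 (ENSRNOG00000069035) had 15, 9 and 14 counts in the captured libraries and 0 in each crude library. Signal recognition particle RNA genes gave 11 of 25 lower and none higher, with a median of -0.45 (0.63 by library size). Rn7sl1, a gene of this RNA, had 11, 12 and 4 counts against 320, 122 and 3857 counts, so the third crude library carried most of its reads. Its log2 fold change of -7.72 became -4.84 without that library, still called. A steadier copy (ENSRNOG00000055825) had 25, 23 and 21 counts against 3528, 2592 and 2540 counts and a log2 fold change of -7.28 ± 0.17 (SE). Copies of rRNA, signal recognition particle and small nuclear RNA genes are nearly identical, so how reads fall among them is uncertain.

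The gene that the table names Rpph1 had 6.06, 8.85 and 3.62 CPM against 444, 286 and 278 CPM, a log2 fold change of -5.77 ± 0.18 (SE) with an edgeR adjusted p of 2.64e-33. The name in the table and the RNA class in RefSeq differ on which ribonuclease RNA this is, so it is not assigned to an enzyme here. None of 84 small nucleolar and Cajal body RNA genes tested was called by edgeR against crude_RNase, beside 5.03% of all genes lower and 1.45% higher, with 13 (15.5%) at an unadjusted p under 0.05, beside 17.8% of all genes, and a median of 0.09 (-0.03 by olfactory receptor scaling). DESeq2 called none but gave 82 of them no adjusted p. The 203 spliceosomal RNA genes gave none lower and 2 higher with a median of 0.03 (-0.09 by olfactory receptor scaling). The 2 were a U2 copy (ENSRNOG00000052561) with 21, 12 and 21 counts against 3, 3 and 3 counts and a U6 copy (ENSRNOG00000063441) with 20, 26 and 15 counts against 3, 6 and 5 counts. One Y RNA copy (ENSRNOG00000060430) of 8 Y and vault RNA genes fell, from 41, 18 and 28 counts to 9, 5 and 4 counts.

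Of the 385 genes called higher, 46 rose by over 1 on the log2 scale. The highest named gene with an ample count was Pou6f1, a homeodomain transcription factor, with 16.0, 22.1 and 13.6 CPM in IP_RNase_ProK and 6.71, 7.47 and 6.43 CPM in crude_RNase. Its groups did not overlap, and its log2 fold change was 1.32 ± 0.20 (SE) with an edgeR adjusted p of 7.55e-07. The next 7 by the same rule lay between 0.60 and 0.81 on the log2 scale and were Olr1639, Olr855 and Olr49, all olfactory receptors, Hcar2, a receptor for ketone bodies and niacin, Fgfbp1, a carrier of fibroblast growth factors, Slc35g2 and Gja10, a connexin. The calls of 4 of these 7 rested on few libraries. Hcar2 was lost without the first IP_RNase_ProK library (0.54), Olr855 without the second crude_RNase library (0.58), Fgfbp1 without the first or the third IP_RNase_ProK or the second or the third crude_RNase library (0.50 to 0.61), and Gja10 without any 1 IP_RNase_ProK library or the second crude_RNase library (0.48 to 0.66). Of 1033 olfactory receptor genes tested, 13 were higher and 1 lower, beside 1.45% of all genes higher, with a median of 0.11 (-0.01 when scaled on these genes themselves, with 6 higher and 6 lower). Without the second crude_RNase library 26 were higher, and without the first crude_RNase library 6 were lower.

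MicroRNA genes were listed after the data had been seen. The counts are reads of their hairpin genes in total RNA, not of the mature microRNA. Of 185 tested 4 (2.16%) were higher and none lower, beside 1.45% of all genes higher, with a median of 0.06 (-0.06 by olfactory receptor scaling, with 1 higher and 2 lower). The mature sequences of the 4 genes, from RefSeq (GRCr8), are shown to let their seeds be compared, with the seed (bases 2 to 8) in capitals.
rno-miR-96-5p: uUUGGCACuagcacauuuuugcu
rno-miR-96-3p: cAAUCAUGugcagugccaauau
rno-miR-181c-5p: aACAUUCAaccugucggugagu
rno-miR-181c-3p: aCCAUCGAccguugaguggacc
rno-miR-6332: cGCAGGGAcugcaaggagccgca
rno-miR-3546: aUAACCCGggccaaaagcucac
The 6 mature sequences carry 6 different seeds, so the 4 genes share no seed. As the share called higher was near that of all genes, nothing is read from these 4 genes as a set. Mir6332 had 31, 20 and 25 counts in the captured libraries and 8, 7 and 9 counts in the crude ones, a log2 fold change of 1.32 ± 0.34 (SE) with an edgeR adjusted p of 0.0074, and kept its call without any 1 of the 6 libraries. Mir96 had 16, 10 and 12 counts against 3, 3 and 4 counts (1.56 ± 0.48 (SE)). Mir181c had 14, 8 and 19 against 6, 2 and 3 counts (1.54 ± 0.48 (SE)). Mir3546 had 28, 15 and 24 against 10, 6 and 8 counts (1.14 ± 0.35 (SE)). These 3 calls were each lost without the first or the third IP_RNase_ProK or the second crude_RNase library, and for Mir181c and Mir3546 also without the third crude_RNase library and for Mir96 without the first. Their log2 fold changes then lay from 1.40 to 1.56 for Mir96, from 1.19 to 1.62 for Mir181c and from 1.00 to 1.20 for Mir3546.

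Markers of other cells of muscle tissue were read in both preparations, and no marker tested was at 0 counts in any of the 6 libraries. Over all genes tested 5.03% were lower and 1.45% higher, and nothing is read from a list with 1 call. Matrix and fibroblast genes had the most calls of these lists, with 19 of 27 lower, none higher and a summed level of 2096 to 2101 CPM against 4347 to 4466 CPM. Their median was -0.42 (0.67 by library size). Col3a1 and Col1a1, fibrillar collagens, changed by -3.57 and -2.10, and Col3a1 had 52.4, 52.9 and 49.4 CPM against 574, 638 and 626 CPM with an edgeR adjusted p of 1.85e-38. Gsn, which severs actin, and Sparc, a matrix glycoprotein, changed by -2.59 and -2.48. Endothelial markers gave 1 of 13 lower, Fabp4, at -1.24, with a summed level of 794 to 824 CPM against 797 to 878 CPM. Smooth muscle and pericyte markers gave 2 of 12 lower, Des and Mylk, at -1.96 and -0.36, and Des is also a sarcomere gene. Their sum ran from 806 to 822 CPM against 963 to 999 CPM. Macrophage and leukocyte markers gave 4 of 17 lower, Lyz2, C1qb, Cd163 and Cd74, at -0.99, -0.69, -0.61 and -0.53, and 1 higher, Cd3e, at 0.40, with a summed level of 666 to 692 CPM against 720.5 to 761 CPM. The Cd3e call was lost without the first or the third IP_RNase_ProK or the second or the third crude_RNase library (0.29 to 0.40). By olfactory receptor scaling no macrophage and leukocyte marker was called higher. Erythroid markers gave 1 of 8 lower, the globin Hba-a2, with 37.4, 41.2 and 36.8 CPM against 58.6, 52.0 and 65.9 CPM, and a sum of 195 to 198 CPM against 200.4 to 228 CPM. Adipocyte markers gave Plin4 lower, at -0.62, and Cidec higher, at 0.38, of 12, with a sum of 524 to 530.2 CPM against 518 to 585 CPM. The Cidec call ended without the first or second IP_RNase_ProK or the second or the third crude_RNase library (0.31 to 0.37). No adipocyte marker was called higher by olfactory receptor scaling. Satellite cell markers gave 1 of 10 lower, Sdc4, at -0.55, with a sum of 327 to 341 CPM against 345 to 384 CPM, and Schwann cell and nerve markers gave none of 12 by edgeR or DESeq2 and 3 at an unadjusted p under 0.05, with a sum of 442 to 460.1 CPM against 417 to 453 CPM.

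Genes typical of organs other than muscle were read in both preparations. The 28 tested summed to 831 to 860 CPM in IP_RNase_ProK and to 727 to 798 CPM in crude_RNase, ranges that did not overlap. Of them 1 was lower (3.57%) and 2 were higher (7.14%), beside 5.03% and 1.45% of all genes. Their median was 0.12 (0.00 by olfactory receptor scaling, with none called higher). The member called lower was Mbp, a myelin protein, at -0.32, and Gcg, the glucagon gene, was called higher with 13.2, 12.4 and 17.5 CPM against 9.84, 9.34 and 9.22 CPM at 0.59. The Gcg call was lost without any library but the second IP_RNase_ProK one (0.43 to 0.66), and the Mbp call without the first or the third IP_RNase_ProK or the first crude_RNase library (-0.31 to -0.23). What part the reads of these genes, of other cell types or of the lower RNA input had in the results above was not tested.

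Captured mitochondria without proteinase K allow the protease step to be compared alone, since both captured groups share the isolation method and the RNA input. Against IP_RNase, 29 genes (0.11%) were lower and 8 (0.0302%) higher in IP_RNase_ProK by the same edgeR test, 37 in all, and 23 without the first IP_RNase_ProK library or 24 without the first IP_RNase library. The number called higher depended on the setting. It was 0 without the first IP_RNase library, 1 without the second IP_RNase_ProK library, 2 without the first IP_RNase_ProK library, 3 without the second or the third IP_RNase library, 1 by library size, 4 with the replicate number as a block and 75 when these 2 groups alone were fitted, where 80 were lower. Mitochondrial mRNAs made up 13 of the 29 lower genes, with a median of -1.21 on the log2 scale, so all 13 of these mRNAs were called. None of the 4 mitochondrial rRNA and tRNA genes tested was called against IP_RNase, and their median was -1.33. Mt-co3 had 882, 1009 and 1317 CPM with proteinase K and 2866, 1847 and 4247 CPM without it. The groups did not overlap, and the log2 fold change was -1.48 ± 0.20 (SE) with an edgeR adjusted p of 3.05e-06. Mt-nd6, Mt-cyb, Mt-nd1, Mt-nd5 and Mt-co1 changed by -1.21, -1.21, -1.24, -1.26 and -1.33. Without the first IP_RNase_ProK library the calls of Mt-co1 and Mt-nd5 were lost, at -1.18 and -1.14. Not all 13 mRNAs were checked in this way. The share of mitochondrial genes was 5.27%, 3.33% and 10.9% in the IP_RNase libraries, so the second of these lay just below the highest IP_RNase_ProK library and the groups overlapped in that share. No member of the lists of nuclear mitochondrial genes, cytosolic translation, sarcomere, energy supply, sarcoplasmic reticulum or cell type markers was called against IP_RNase by edgeR or DESeq2. At an unadjusted p under 0.05 there were 31 of 422 (7.35%) among the nuclear mitochondrial, translation and muscle genes and 20 of 131 (15.3%) cell type markers, beside 8.87% of all genes, and DESeq2 gave no adjusted p for 341 and 72 of them. Acta1 had 21.4, 22.5 and 37.0 CPM in IP_RNase and a log2 fold change of 0.01 ± 0.15 (SE), Rplp0 0.00 ± 0.12 (SE), and Slc25a4 0.00 ± 0.15 (SE). The named genes called higher by the rule were Coasy, an enzyme of coenzyme A synthesis, at 0.53 ± 0.11 (SE), Sf3a2, a splicing factor, at 0.50 ± 0.11 (SE), Igf2, a growth factor, at 0.46 ± 0.10 (SE), and Plekha4 at 0.40 ± 0.09 (SE). Each of these 4 calls was lost when any of several single libraries was left out, the first and second IP_RNase_ProK and the first IP_RNase libraries among them, with log2 fold changes from 0.41 to 0.57 for Coasy, 0.46 to 0.53 for Sf3a2, 0.41 to 0.46 for Igf2 and 0.36 to 0.43 for Plekha4. Against crude_RNase, Coasy and Sf3a2 stood at 0.37 and 0.36, called, with the Coasy call lost without the second or the third IP_RNase_ProK or the first or the third crude_RNase library (0.32 to 0.39) and the Sf3a2 call without the first or second IP_RNase_ProK or the first or second crude_RNase library (0.26 to 0.35). Both comparisons use the same IP_RNase_ProK libraries, so their values are set side by side and not counted as independent.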

How the data were processed

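Per the labels' protocols, extraction included DNase I digestion on the column, and total RNA was made into ribosomal RNA-depleted libraries (Zymo-Seq RiboFree). Per the submitters' processing notes, the tools were FastQC 0.74, cutadapt 4.6, STAR 2.7.11a and HTSeq, with the rat build mRatBN7.2. The sources used here do not give the annotation release, the strand setting or the handling of multiply matching reads. The authors deposited unnormalised read counts, whole numbers for each Ensembl gene, for 30560 genes and 12 libraries. For crude mitochondria the source label names immunoprecipitation, and the title and series design were followed.

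Counts were tested with edgeR 4.0.16 (R 4.3.3) by its quasi-likelihood test in 1 model of all 12 libraries and 4 groups, with TMM scaling and filterByExpr at a minimum count of 10, which kept 26483 genes (86.7%), and Benjamini-Hochberg adjustment over all of them. The SE is the log2 fold change divided by the square root of the F statistic. The scaling factors ran from 0.526 to 0.679 for crude_RNase and from 1.22 to 1.23 for IP_RNase_ProK. The common biological coefficient of variation was 0.0644. The script was tested on simulated data. Shares were compared by exact permutation in SciPy 1.17.1. PCR copies are not independent molecules. RefSeq tables (assembly GRCr8) matched 17175 of 21596 symbols that occur once and gave names, biotypes and the printed sequences. No gene lengths were used, so levels are not compared between genes.

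Genes named in the text were the 8 highest and 8 lowest called genes averaging 50 or more counts whose ranges lay apart and that had a proper symbol, the 4 members of each list of smallest p, the mitochondrial mRNAs and rRNAs, Rpph1, Rn7sl1, the isoform pairs, and the 4 highest and 4 lowest against IP_RNase. The text gives part of these. Ttn, Neb, Cd3e, the members of the ribosomal protein and sarcomere lists that did not pass, the microRNA genes and the genes without a name were chosen after their values were seen. Members, lists and tests were chosen with earlier results of these data known, and name patterns of the mitochondrial and nuclear rRNA lists were extended to the names the table uses. Alternatives were DESeq2 1.42.0, other scalings and filters, a replicate block and leaving out libraries. Some genes are not reported here.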

Additional observations from a re-analysis of the deposited data

How the results depend on the processing

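Scaling mattered most, since the groups differ in how much of a library the mitochondrial genome takes. Against crude_RNase 1718 genes were called with TMM scaling. The number called in all was 1135 with DESeq2 (166 higher, with no adjusted p for 3594 genes), 25408 by library size scaling (25222 higher, 186 lower) and 26470 with scaling on the mitochondrial mRNAs (26457 higher, 13 lower). Olfactory receptor scaling gave 79 higher, and a fit of the 2 groups alone 250 higher. Leaving out 1 library gave 1183 to 2267 called, 181 to 662 higher and 1002 to 1605 lower. Against IP_RNase, where 37 were called, library size scaling gave 23, the 2 groups alone 155, and leaving out 1 library 23 to 35. The mitochondrial share difference lay between -50.9 and -44.5 percentage points without 1 library and was -47.9 without nuclear-encoded rRNA in the total. Of 35 lists, 28 had a median below 0, of which 22 went above 0 by library size, 26 by mitochondrial mRNA scaling and none by olfactory receptor scaling. With the replicate number as a block, 1676 genes were called against crude_RNase (370 higher, 1306 lower) and 33 against IP_RNase. Same-numbered IP_RNase_ProK and crude_RNase libraries had correlations of deviations of 0.057, 0.025 and 0.015 across genes, and the other pairs -0.046 to 0.019. The first and second IP_RNase_ProK libraries correlated best with the crude_RNase library of the same number. The third correlated best with the second crude_RNase library. Values this small cannot decide whether the numbers pair the libraries. With the block the Sf3a2 call against IP_RNase was lost (0.50).

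By library size scaling these log2 fold changes against crude_RNase turned positive: Eef1a2 0.34, Myh7 0.32, Mylk 0.72, Myoz3 1.03, Myom3 1.01, Pygb 0.96, Plekha4 1.01, Lrpprc 0.76, Plin4 0.46, Pdlim7 0.91, Cd163 0.47, Tpm4 0.058, Eno1 0.74, Cd74 0.55, Mbp 0.75, Hba-a2 0.47, Igf2 0.83, Myl3 0.16, Ctsb 0.23, Hspa5 0.32, Ckb 0.23, Rpl3l 0.47, Chchd3 0.029, Canx 0.17, Vdac3 0.047, Actc1 0.94, Pgam1 0.74, C1qb 0.39, Mrpl3 0.51, Lyz2 0.090, Sdc4 0.53, Cox6a1 0.76, Rps27l 0.57, Mrps21 0.40, Slc25a5 0.32, Rpl10l 1.03 and Cox6a2 0.96. By olfactory receptor scaling Pfkl became -0.12 and Mybph -0.017. Genes near 0 also changed sign: with the block Pfkl became -2.6e-05, and without 1 library Pfkl ran from -0.087 to 0.12, Rpl10l from -0.20 to 0.039, Myoz3 from -0.099 to 0.051 and Pdlim7 from -0.25 to 0.0067. Without the third crude_RNase library Rps27l was called lower (-0.64). The 3 libraries a group limit shares to an exact permutation p of 0.1 or more, and microRNA and other genes with under about 30 counts a library carry wide errors. For other changes the cause was not tested.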

Other observations

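Genes without a name in the table were 5498 of the genes tested, of which 75 (1.36%) were lower and 146 (2.66%) higher in IP_RNase_ProK than in crude_RNase, beside 5.03% lower and 1.45% higher of all genes. The lowest of all genes tested, ENSRNOG00000065674, had 3, 1 and 3 counts in the IP_RNase_ProK libraries and 2554, 1405 and 1693 counts in the crude_RNase libraries, with a log2 fold change of -9.89 ± 0.19 (SE) and an edgeR adjusted p of 9.12e-42. ENSRNOG00000071057 had 157, 149 and 128 counts in IP_RNase_ProK and 56, 33 and 32 counts in crude_RNase, a log2 fold change of 1.52 ± 0.17 (SE) with an edgeR adjusted p of 2.26e-10. Both were chosen after their values were seen, and their groups did not overlap. Against IP_RNase, 12 of the 29 genes called lower had no name, beside 5498 of all 26483 genes tested. In that comparison 0.11% of all genes tested were called lower.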
